A study of Homo sapiens with 18 samples.

Results

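Transforming growth factor beta (TGF-beta) superfamily genes were followed in PNT1A cells placed at 5 locations of a quasi-humanoid phantom during stereotactic body radiotherapy. The 10 genes, out of 22392 tested, were the ligands GDF15, TGFB1, TGFB2, INHBA and BMP4, the receptors TGFBR1 and TGFBR2, the secreted antagonist GREM1, the signal transducer SMAD3 and the inhibitory SMAD7. They are a list of gene names with no threshold on a measured value, put together when earlier results of these data were known, and each had exactly 1 probe set that the array annotation assigns to a single gene symbol. PNT1A cells come from normal prostate epithelium and were immortalised with SV40, whose large T antigen binds p53 and the retinoblastoma protein, and every group consisted of this same line. Flasks lay in the beam axis, where the cells received 70 Gy as 7 consecutive fractions of 10 Gy, or at the positions of the intestine, lung, thyroid and brain, 15, 35, 52 and 74 cm from the axial plane. Control cells are called untreated in the sample names and sham-irradiated in the protocol, which says that their flasks also held PBS at room temperature without any exposure. All cells were collected 1 h after irradiation, replated and cultured for 24 h in full medium before RNA was isolated. Each of the 6 groups had 3 biological repeats, so 18 arrays in all. The p-values weigh each difference against the spread between repeats, taken over all groups together and drawn for each gene toward the spread of all genes. Levels are log2 intensities, on which a difference of 1 is a doubling, and they are not compared between genes, since probe sets differ in brightness.

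Ligands of the TGF-beta superfamily are secreted dimers, and TGF-beta itself is held in the matrix as a latent complex until it is activated. Active TGF-beta brings the type II receptor kinase TGFBR2 and the type I kinase TGFBR1 together. The type I kinase phosphorylates receptor SMADs such as SMAD3, which enter the nucleus with SMAD4 and bind DNA. Which receptor GDF15 acts through was not tested. SMAD7 is an inhibitory SMAD that turns the receptors off, while GREM1 traps bone morphogenetic proteins (BMPs) outside the cell. In the prostate, TGF-beta is known for restraining epithelial growth and for its effects on the stroma and matrix, and GDF15 is a distant member of the family that many kinds of cell stress induce.

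The promoters of the 4 members with the largest differences in the axis are printed first, since these are the genes the comparisons turn on. Each sequence is the RefSeq sequence of GRCh38.p14 for the 250 bases before the first listed start of the gene, written 5′ to 3′ on the plus strand, which is the strand of all 4 genes. The windows are chr19:18385908-18386157 for GDF15, chr9:99104863-99105112 for TGFBR1, chr1:218345086-218345335 for TGFB2 and chr15:32717754-32718003 for GREM1. Capitals mark a TATA box searched as TATAAA and a SMAD box searched as CAGAC, which reads GTCTG where it lies on the opposite strand.
GDF15: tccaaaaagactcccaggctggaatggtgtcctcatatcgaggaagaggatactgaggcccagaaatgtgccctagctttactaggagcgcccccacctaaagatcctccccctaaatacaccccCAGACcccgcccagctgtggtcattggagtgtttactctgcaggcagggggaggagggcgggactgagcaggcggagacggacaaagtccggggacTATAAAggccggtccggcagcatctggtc
TGFBR1: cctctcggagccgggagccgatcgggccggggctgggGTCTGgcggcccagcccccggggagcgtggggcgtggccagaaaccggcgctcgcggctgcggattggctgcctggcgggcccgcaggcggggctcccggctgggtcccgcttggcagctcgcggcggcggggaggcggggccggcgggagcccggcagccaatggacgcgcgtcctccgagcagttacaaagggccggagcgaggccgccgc
TGFB2: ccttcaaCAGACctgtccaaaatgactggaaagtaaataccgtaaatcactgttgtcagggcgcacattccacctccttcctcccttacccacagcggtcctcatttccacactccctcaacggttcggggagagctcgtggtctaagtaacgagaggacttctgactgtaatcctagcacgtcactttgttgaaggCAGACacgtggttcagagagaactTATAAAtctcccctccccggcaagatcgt
GREM1: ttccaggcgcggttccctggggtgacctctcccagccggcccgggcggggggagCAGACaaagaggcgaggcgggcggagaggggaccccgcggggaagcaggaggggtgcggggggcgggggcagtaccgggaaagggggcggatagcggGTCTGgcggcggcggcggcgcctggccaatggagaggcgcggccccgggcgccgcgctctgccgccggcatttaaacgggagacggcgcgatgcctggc

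The motif searches covered both strands of windows from 250 bases before to 50 bases after each start, and all 10 members matched a window by symbol. A TATA box was present in 3 of the 10 members (GDF15, TGFB2 and INHBA) and in 11.5% of all 35116 RefSeq promoters. In GDF15, the member that rose furthest in the axis, and in TGFB2, the member that fell furthest, it began 29 bases before the start. In INHBA the match began 11 bases before the start. A SMAD box was found in 8 of the 10, with TGFB1 and TGFBR2 the exceptions, and it is a short motif that 45.3% of all promoters hold. A GC box, searched as GGGCGG, was in 5 of the 10 and in 45% of all promoters. The SMAD boxes of TGFB2 began 243 and 53 bases before its start, those of GREM1 196 and 99 bases before, that of GDF15 125 bases before and that of TGFBR1 213 bases before. The AP-1 site TGANTCA and the p53 half-site RRRCWWGYYY were in none of the first listed windows of the 10 members. In these patterns N is any base, R is A or G, W is A or T and Y is C or T. An exact search of these windows cannot show that a gene lacks such a site. Over all 27 listed windows of the members, several of which overlap within a gene, 2 held the AP-1 site and 4 the p53 half-site, against 7.71% and 6.63% of all promoters. The TGFBR1 and GREM1 windows were rich in G and C, at 78.7% and 77.0%, against a median of 58.7% over all promoters, 59.3% for GDF15 and 51.7% for TGFB2. These matches describe the letters of the windows and were not tested against the expression values.

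Of the whole table, the arrays had medians from 4.07 to 4.22 over the genes tested, and repeats of the same group correlated at 0.992 or more. The axis arrays lay apart from the other 15 on the first principal component, at 41.5 to 44.9 against −9.81 to −7.36. As a guide to dim probe sets, 383 olfactory receptor genes had a median level of 2.66, and their 95th percentile, 3.76, was taken as the dim level. INHBA, at a mean of 2.93 over all arrays, was below it, and the other 9 members were above it. Of 7 measured prostate epithelial markers, 6 were above the dim level (KRT5, KRT8, KRT18, KRT19, EPCAM and CDH1), while KRT14 was not. Among 4 measured markers of differentiated prostate luminal cells, 1 was just above it, KLK3 at 3.79, while KLK2, ACP3 and TMPRSS2 were not. Of the endothelial markers 0 of 3 were above it, and 1 of 4 leukocyte markers, CD14, was just above it at 3.81.

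**Figure D1:**
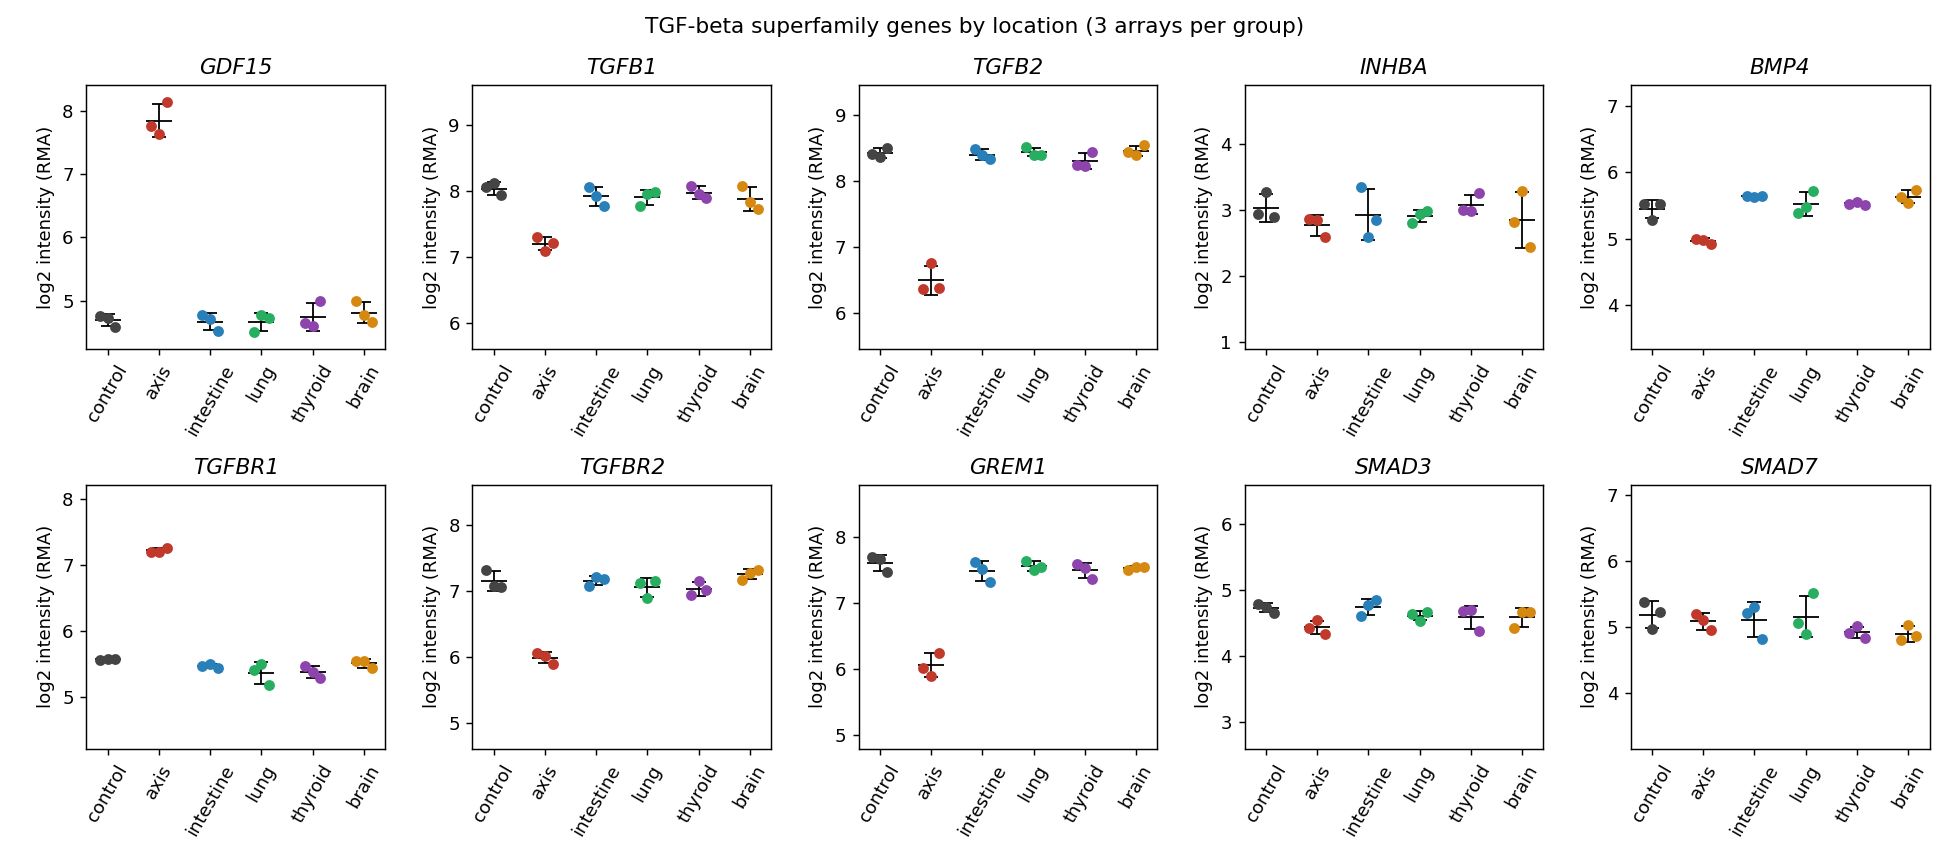
Log2 intensity (y axis) of each member on the 18 arrays by location (x axis), with points for the 3 repeats of a group and bars for their mean ± SD. Axis points lie above all the others for GDF15 and TGFBR1, below all the others for TGFB1, TGFB2, BMP4, TGFBR2 and GREM1, and among them for INHBA, SMAD3 and SMAD7.

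In the beam axis, 2 members rose against control cells and 4 fell. GDF15 rose 8.85-fold and the type I receptor TGFBR1 rose 3.13-fold, while the ligands TGFB2 and TGFB1, the type II receptor TGFBR2 and the antagonist GREM1 fell by 3.80-fold, 1.78-fold, 2.23-fold and 2.93-fold. Members were called where limma gave a Benjamini-Hochberg adjusted p under 0.05 over all 22392 genes together with a fold change above 1.5. By this rule 4.39% of all genes were called higher and 2.60% lower in the axis, and the 10 members had a median log2 difference of −0.39, against 0.0070 over all genes. A fall on the arrays cannot tell less RNA per cell from fewer of the cells that hold it.

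GDF15, the stress-induced ligand, measured 4.76, 4.74 and 4.59 log2 units in the control repeats and 7.76, 7.63 and 8.13 in the axis. Intestine cells gave 4.78, 4.72 and 4.52, lung cells 4.51, 4.78 and 4.72, thyroid cells 4.65, 4.60 and 5.004, and brain cells 5.0, 4.78 and 4.67. Every axis array was thus far above the other 15, whose highest value was 5.004, and those 15 overlapped freely. The log2 difference from control was 3.15 (SE 0.13, 95% confidence interval 2.87 to 3.42, limma adjusted p = 5.02e-12), which ranked 8 from the top of the 22392 genes. In the order of group means the intestine (4.67 ± 0.14, SD, n = 3), lung (4.67 ± 0.14), control (4.69 ± 0.094), thyroid (4.75 ± 0.22) and brain (4.82 ± 0.17) followed each other within their spread, and only the step to the axis (7.84 ± 0.26) was larger than it.

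TGFB2 encodes one of the TGF-beta ligands that signal through TGFBR2 and TGFBR1, and had the largest fall among the members. Control repeats measured 8.40, 8.36 and 8.50 and axis repeats 6.36, 6.75 and 6.37 on the log2 scale. The intestine repeats were at 8.48, 8.39 and 8.32, the lung repeats at 8.51, 8.39 and 8.40, the thyroid repeats at 8.24, 8.22 and 8.44, and the brain repeats at 8.43, 8.40 and 8.54. All axis arrays were below all others, with a gap from 6.75 to 8.22 between the nearest values. The log2 difference was −1.93 (SE 0.098, 95% confidence interval −2.13 to −1.72, limma adjusted p = 4.72e-11), and it ranked 17 from the bottom of all genes. Outside the axis the group means ran from 8.30 ± 0.12 in the thyroid to 8.46 ± 0.077 in the brain, within their spread.

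TGFB1, the ligand best known from blood platelets and the immune system, moved the same way by less. Its control repeats were at 8.05, 8.11 and 7.93 and its axis repeats at 7.29, 7.09 and 7.21, a log2 difference of −0.84 (SE 0.10, 95% confidence interval −1.05 to −0.62, limma adjusted p = 4.77e-06). Across the peripheral locations the 12 arrays measured from 7.72 to 8.08, above every axis array. The nearer bound of its interval is close to the 1.5-fold threshold, and in limma's treat test, which asks for a change beyond 1.5-fold, TGFB1 no longer passed (adjusted p = 0.356).

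BMP4, a BMP ligand, measured 5.53, 5.29 and 5.52 in control cells and 4.99, 4.98 and 4.92 in the axis on the log2 scale. Intestine cells were at 5.64, 5.63 and 5.65, lung cells at 5.38, 5.47 and 5.72, thyroid cells at 5.53, 5.55 and 5.51 and brain cells at 5.63, 5.53 and 5.73. The axis arrays were again below all the others, although the gap was small. Against control the log2 difference of −0.48 (SE 0.088, limma adjusted p = 4.28e-04) amounted to a 1.40-fold lower level, under the fold threshold, so BMP4 was not called. Against the 4 peripheral locations together it was −0.62 (SE 0.069, 95% confidence interval −0.76 to −0.47, limma adjusted p = 1.12e-06), a 1.53-fold lower level that was called, but not by the treat test.

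INHBA encodes the activin A subunit, and its mean level, below the dim level, lay above the olfactory receptor median but under their 95th percentile. It measured 2.94, 3.28 and 2.89 in control cells and 2.87, 2.85 and 2.59 in the axis, and the other 12 arrays ran from 2.44 to 3.36 on the log2 scale. The axis values lay within the range of the others, and the difference of −0.27 had a 95% confidence interval from −0.66 to 0.13 (limma adjusted p = 0.408). A level this dim limits what the array can show of INHBA.

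The receptors moved in opposite directions. TGFBR1, the type I kinase, measured 5.57, 5.58 and 5.58 in control cells and 7.21, 7.21 and 7.26 in the axis. Its intestine repeats were at 5.47, 5.50 and 5.44, its lung repeats at 5.41, 5.50 and 5.18, its thyroid repeats at 5.47, 5.38 and 5.28 and its brain repeats at 5.55, 5.55 and 5.44. All 3 axis arrays stood above the other 15, and the control arrays were at the top of those 15. The rise in the axis was 1.65 on the log2 scale (SE 0.079, 95% confidence interval 1.48 to 1.81, limma adjusted p = 2.38e-11).

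TGFBR2, the type II kinase that binds the ligand first, measured 7.32, 7.08 and 7.05 in control cells and 6.05, 6.02 and 5.90 in the axis. The intestine gave 7.07, 7.21 and 7.18, the lung 7.12, 6.89 and 7.15, the thyroid 6.93, 7.14 and 7.01 and the brain 7.17, 7.27 and 7.32. Axis arrays were below every other array and the remaining groups overlapped. The log2 difference from control was −1.16 (SE 0.092, 95% confidence interval −1.35 to −0.97, limma adjusted p = 2.06e-08).

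GREM1, the secreted BMP antagonist, was at 7.68, 7.66 and 7.46 in control cells and at 6.01, 5.89 and 6.24 in the axis. Intestine repeats measured 7.61, 7.51 and 7.32, lung repeats 7.64, 7.49 and 7.54, thyroid repeats 7.58, 7.53 and 7.36 and brain repeats 7.50, 7.54 and 7.54. The axis values did not overlap with the rest, and the group means outside the axis, from 7.48 in the intestine to 7.60 in control cells, followed each other within their spread. GREM1 fell by 1.55 on the log2 scale (SE 0.099, 95% confidence interval −1.76 to −1.34, limma adjusted p = 1.25e-09). Thus BMP4 and its antagonist GREM1 were both lowest in the axis, by unequal amounts.

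The SMADs among the members did not pass both thresholds. SMAD3, the receptor SMAD of TGF-beta and activin, measured 4.79, 4.75 and 4.66 in control cells and 4.42, 4.54 and 4.34 in the axis, while the 12 peripheral arrays ran from 4.39 to 4.85. The axis values were low but overlapped with single lung, thyroid and brain arrays, and the difference from control of −0.30 on the log2 scale (95% confidence interval −0.50 to −0.092, limma adjusted p = 0.0369, and up to 0.152 under the alternatives) was a 1.23-fold lower level, under the fold threshold. SMAD7 measured 5.37, 4.96 and 5.22 in control cells and 5.20, 5.11 and 4.94 in the axis, and from 4.80 to 5.51 elsewhere. Its values overlapped in all groups, and the difference of −0.10 had a 95% confidence interval of −0.41 to 0.21 (limma adjusted p = 0.757).

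Against the 4 peripheral locations together, 2 members were called higher (4.85% of all genes were) and 5 lower (2.27% of all genes), the fifth being BMP4. This comparison uses the same axis arrays as the one with control, so it is a further description and not a repeat. GDF15 was higher by 3.11 on the log2 scale (8.65-fold) and TGFBR1 by 1.79 (3.46-fold), while TGFB2 was at −1.90, GREM1 at −1.46, TGFBR2 at −1.13 and TGFB1 at −0.72. With each peripheral location taken alone, those 6 were called every time, and BMP4 was called against the intestine and brain but not against the lung (−0.56) or thyroid (−0.57). By ranges alone, the axis arrays were all above the other 15 for 2 of 10 members and all below for 5, shares that compare with 11.7% and 7.51% of all genes.

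**Figure D2:**
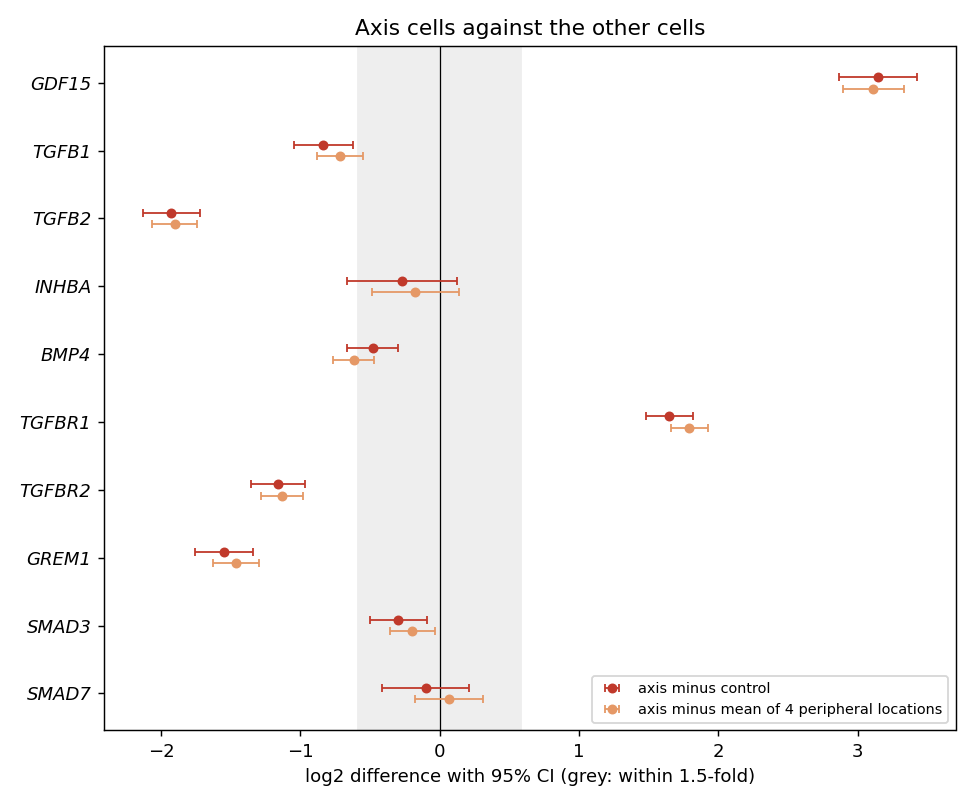
Log2 difference (x axis) of each member between axis and control cells (dark) and between axis cells and the mean of the 4 peripheral locations (light), with 95% confidence intervals from limma. GDF15 (3.15) and TGFBR1 (1.65) lie to the right of the grey band, which marks changes within 1.5-fold, and TGFB2 (−1.93), GREM1 (−1.55) and TGFBR2 (−1.16) lie to the left of it. Both BMP4 intervals straddle its edge, as do that of TGFB1 against the peripheral locations and that of INHBA against control.

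In the peripheral locations none of the 10 members passed the test against control. The 40 log2 differences, 10 members in 4 locations, ran from −0.29 to 0.19, and the limma adjusted p-values were all at least 0.9998. Over all 22392 genes, 0% were called in the intestine, lung, thyroid or brain, and at an unadjusted p under 0.05 the shares were 3.23%, 3.63%, 4.02% and 3.58%. In each location 1 member reached that unadjusted level. These were BMP4 in the intestine (0.19) and brain (0.19) and TGFBR1 in the lung (−0.21) and thyroid (−0.19), all of them differences on the log2 scale.

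The width of the intervals shows what size of change these arrays could leave unseen. Of the 40 intervals 39 lay wholly within a 1.5-fold change in either direction, and the exception was SMAD7 in the brain, at −0.29 with a lower bound of −0.60. For GDF15, which rose by 3.15 in the axis, the 4 peripheral differences were between −0.022 and 0.12 and their intervals between −0.30 and 0.40. TGFBR1, TGFB1, GREM1 and SMAD7 had means below control in all 4 locations and BMP4 above it in all 4. For TGFBR1 the differences were −0.21 to −0.062 and for BMP4 0.078 to 0.19, beside residual SDs between repeats of 0.084 and 0.10. With the 4 locations pooled, TGFBR1 differed from control by −0.14 (95% confidence interval −0.27 to −0.011) and BMP4 by 0.14 (−0.0091 to 0.28), and neither passed after adjustment in limma (adjusted p = 0.9999 for both). In that pooled comparison 0% of all genes were called and 3.47% had an unadjusted p under 0.05. All these comparisons share the same 3 control arrays, whose TGFBR1 values had an SD of 0.0044, so the direction in 1 location does not bear out that in another.

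**Figure D3:**
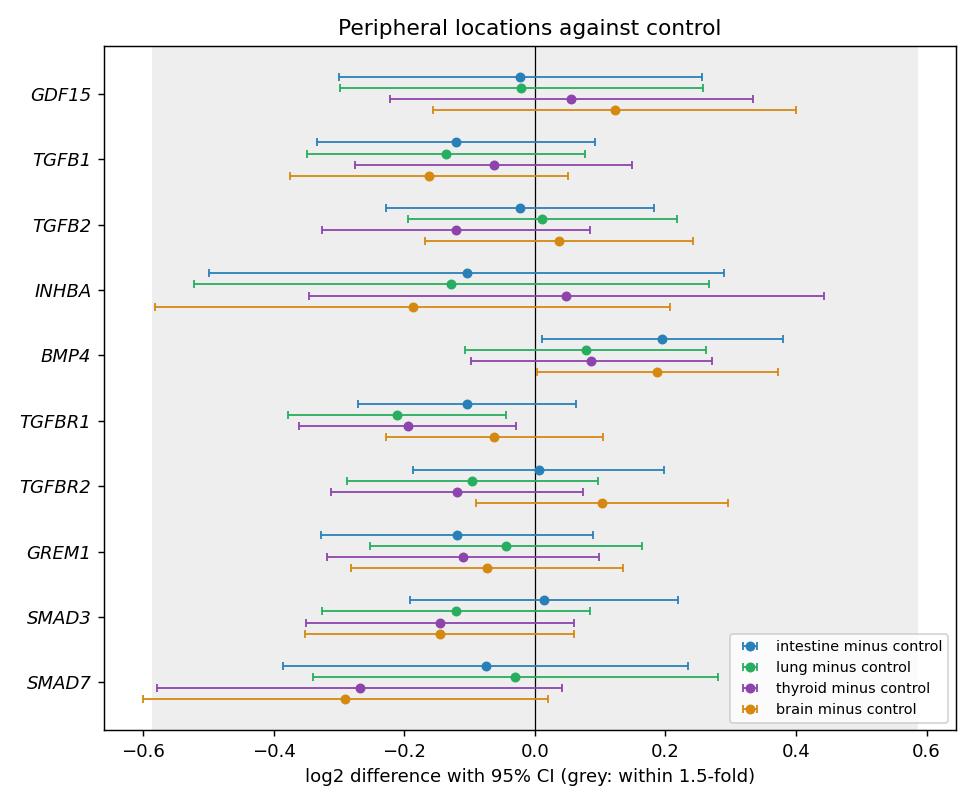
Log2 difference from control (x axis) of each member at the intestine, lung, thyroid and brain locations, with 95% confidence intervals from limma and a grey band for changes within 1.5-fold. All points lie between −0.29 and 0.19, and only the SMAD7 interval in the brain reaches past the band.

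Among the 5 groups outside the axis, an F test in limma found 0% of all genes different after adjustment and 3.03% at an unadjusted p under 0.05. No member was among the latter, and the smallest unadjusted F test p was that of TGFBR1 at 0.0773. Between pairs of peripheral locations the 60 member differences ran from −0.22 to 0.26 on the log2 scale, with 59 of 60 intervals within 1.5-fold. The 2 intervals that left out 0 were both of TGFBR2, which was lower in the lung and thyroid than in the brain by log2 differences of −0.20 and −0.22, and neither passed after adjustment (limma adjusted p = 0.9997 and 0.994).

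The wider pathway was described with 7 lists of genes by role, which hold 132 genes, 122 of them measured here. In the axis 8 of the 122 were called higher and 16 lower, where 4.39% and 2.60% of all genes were, and their median log2 difference was −0.024, against 0.0070 over all genes. Without the 10 members these counts were 6 higher and 12 lower of 112. Most measured genes of every list were not called. The same 4.39% and 2.60% of all genes stand beside the counts of each list below. In lists this short, a direction without called genes says little.

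Of 31 measured ligands, 2 were called higher and 3 lower. Besides the members these were GDF9, an oocyte growth factor in its known role, which rose by 1.11 on the log2 scale, and BMP5, a BMP ligand, which fell by 0.94 (limma adjusted p = 2.89e-07 and 5.57e-06). GDF9 was at 2.89 in control cells and BMP5 at 3.13 in the axis, both under the dim level, so the size of these differences is uncertain. Among 18 receptors and co-receptors, CD109, a membrane protein that binds TGF-beta and dampens its signal, fell by 1.13 beside TGFBR2. Of 14 secreted and decoy antagonists GREM1 alone was called. Of the 12 genes of the latent complex and its activation, 0 were called higher and 2 lower, THBS1 and ITGB8.

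THBS1, thrombospondin, which can activate latent TGF-beta, measured 9.26, 9.24 and 9.34 in control cells and 7.68, 7.69 and 7.58 in the axis on the log2 scale. Its lowest value outside the axis was 9.09, so the groups did not overlap, and the fall was 3.09-fold (limma adjusted p = 1.06e-11). ITGB8, the integrin subunit whose receptor frees active TGF-beta, fell by 0.83 on the log2 scale.

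Among 20 SMADs and SMAD regulators, 3 rose and 1 fell. USP15, a deubiquitinase that acts on the receptor complex, rose by 1.11 on the log2 scale, PMEPA1, a feedback inhibitor, by 0.91, and PPM1A, a phosphatase of receptor SMADs, by 0.67. SMAD6, the inhibitory SMAD of the BMP branch, measured 5.64, 5.70 and 5.58 in control cells and 4.62, 4.60 and 4.27 in the axis, a 2.21-fold fall (limma adjusted p = 1.66e-05). SMAD7, the inhibitory SMAD shared by both branches, did not pass, and the difference between SMAD6 and SMAD7 was not tested.

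Known target genes of TGF-beta went in both directions, with 3 of 24 higher and 5 lower and a list median of −0.11 on the log2 scale. SNAI2, a transcriptional repressor of epithelial genes, rose 5.71-fold, from 6.44, 6.66 and 6.70 in control cells to 9.03, 9.08 and 9.23 in the axis (limma adjusted p = 4.42e-12). PMEPA1 rose 1.88-fold and IL11, a cytokine, 1.68-fold. COL1A1, a fibrillar collagen chain, fell 3.54-fold, from 8.63, 8.80 and 8.66 to 6.84, 6.95 and 6.83 (limma adjusted p = 6.05e-12), and TPM1, a tropomyosin, and COL4A1, a basement membrane collagen, fell 2.04-fold and 1.84-fold. The other two lower genes were TGFBI and FN1, named after their values were seen to complete the count.

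Of 11 targets of the BMP branch, 3 fell and 0 rose, with a list median of −0.24 on the log2 scale. ID1 and ID3, inhibitors of helix-loop-helix factors, fell 1.90-fold and 1.56-fold, and SMAD6 was the other. ID1 went from 9.82, 9.79 and 9.83 in control cells to 8.83, 8.92 and 8.93 in the axis, where all arrays were below the other 15 (limma adjusted p = 2.47e-09). In the peripheral locations 0 of the 122 pathway genes were called.

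**Figure D4:**
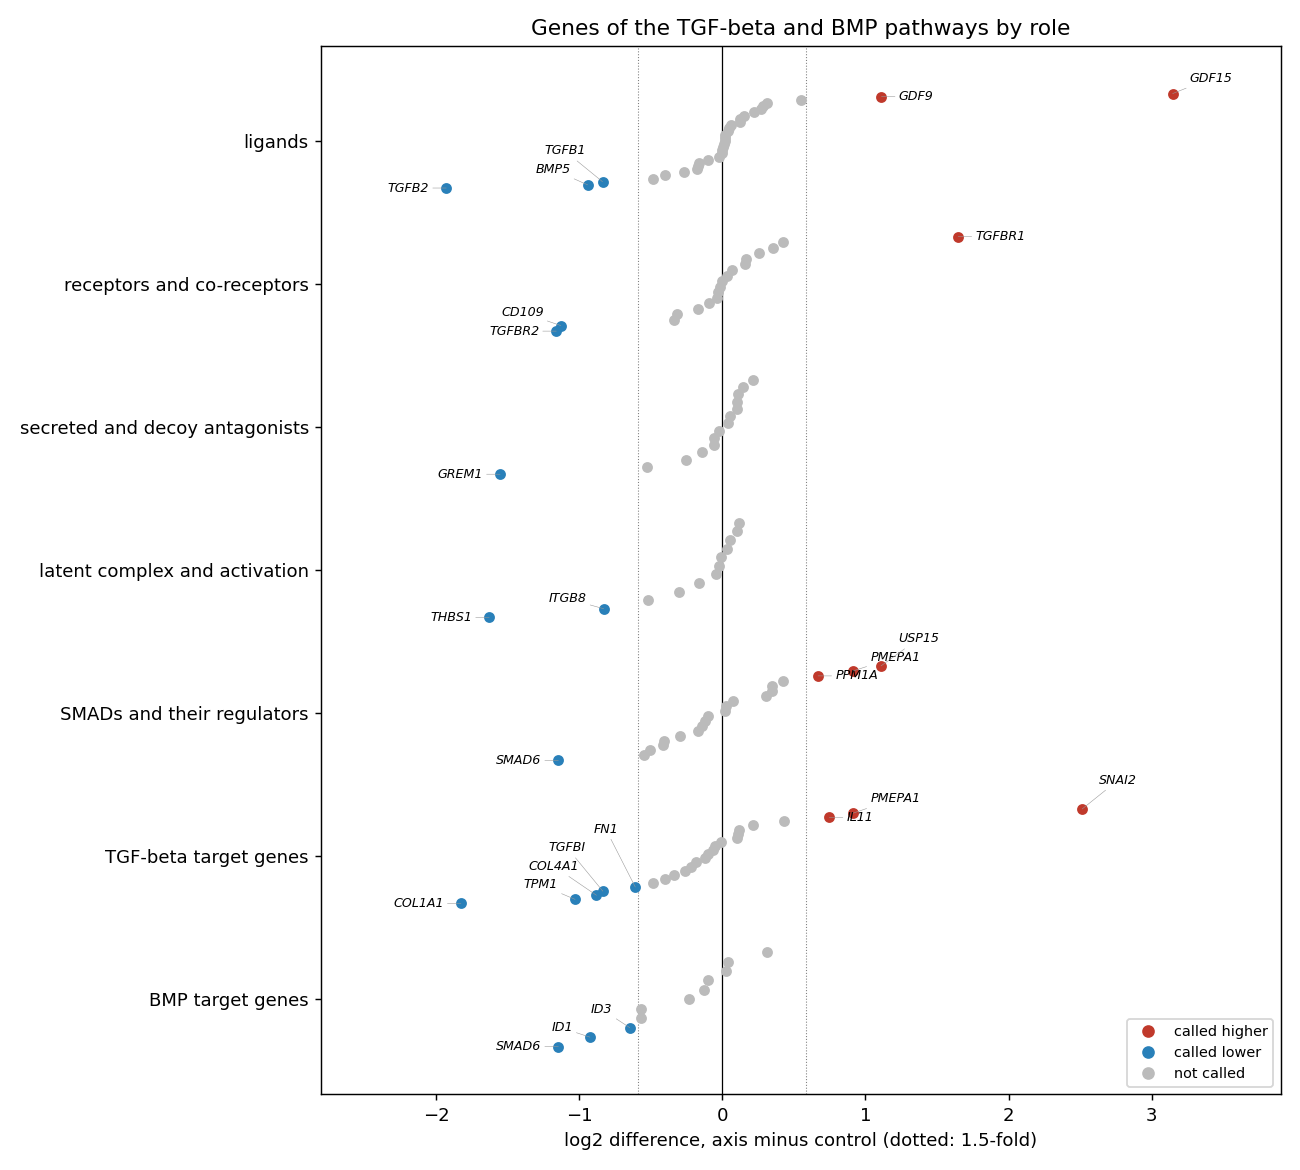
Log2 difference between axis and control cells (x axis) for the measured genes of the 7 role lists (y axis), 1 point per gene, ordered by size within a list, with called genes named and dotted lines at 1.5-fold. Called genes lie on both sides in the ligand, receptor, SMAD and TGF-beta target lists. Among antagonists, activators and BMP targets the few called genes (1 of 14, 2 of 12 and 3 of 11) lie on the lower side.

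Cell type markers moved with these differences in part. Every group was the PNT1A line, so each list is named for the cells its genes usually mark. COL1A1 is also a marker of fibroblasts and stroma, and with PDGFRB (−2.08 on the log2 scale) it was 1 of 2 called lower of 6 measured stromal markers, of which 3 (COL1A1, PDGFRB and VIM) were above the dim level. The log2 of the summed stromal markers was 9.43 to 9.50 in control cells, 9.26 to 9.48 in the peripheral locations and 8.14 to 8.21 in the axis. This sum follows its brightest gene, COL1A1, while the median log2 difference over the 6 markers was −0.22, with VIM at −0.33 and COL1A2 at −0.064. The part of these markers in the falls of TGFB1, TGFB2, TGFBR2 and GREM1 was not tested. COL1A2, DCN and LUM, defining genes of fibroblasts, were below the dim level on all 18 arrays. Of 7 measured epithelial markers 2 were called lower, KRT5 (−0.73) and KRT19 (−1.10), and 0 higher, with EPCAM at 0.12, KRT14 at −0.0097 and a list median of −0.42 on the log2 scale, and the summed epithelial list went from 8.25 to 8.30 in control cells to 7.76 to 7.93 in the axis.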

How the data were processed

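RNA was hybridised to Affymetrix Human Gene 2.1 ST array strips. Per the methods and the processing notes, which give no version, the authors ran RMA of the affy library (background correction, normalisation and probe set summaries), so the deposited values are log2 intensities, and that step was not repeated. The paper names the WT PLUS labelling kit and the sample labels name an IVT Express kit. The strip and scan of each array, not given in the sources used here, could not be tested as a batch.

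Of 53617 probe sets, 23866 had 1 symbol in the array annotation, 1852 several and 27899 none listed. The highest-mean probe set was kept per gene, which left 22392 genes. All 6 groups were fitted together with lmFit and eBayes of limma 3.58.1 (R 4.3.3), leaving 12 residual degrees of freedom and Benjamini-Hochberg adjustment over all genes. The number of arrays limits the precision, and the median standard error of a log2 difference from control was 0.10. The scripts were tested on simulated data.

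The members and lists were chosen with earlier results of these data known. Genes named were the members, up to 3 called in each direction per role list, the 2 genes most like each member over the arrays, the member with the smallest p in each location and the markers, and 2 further TGF-beta targets that complete a count. Listed genes outside the measured 122 were not analysed here. Alternatives changed the normalization, dim filter, row per gene, rows or arrays fitted, replicate block, array weights, variance model and thresholds, or left out 1 array.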

Additional observations from a re-analysis of the deposited data

How the results depend on the processing

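Log2 differences of the members in the axis kept their direction and their call under all alternatives other than the thresholds, 236 values from other processing and 360 that left out 1 array, with GDF15 between 3.00 and 3.25 and TGFB2 between −2.06 and −1.86 against control. INHBA gave no value under the 2 filters on dim genes, which removed it. Replicate numbers of the labels were also fitted as a block, which left 2 members higher and 4 lower against control. Deviations of arrays with the same number correlated at a median of −0.0015 (45 pairs, −0.36 to 0.22), against −0.0082 for the 90 other pairs, so the numbers were not read as pairing the arrays. The thresholds moved the counts most. With no fold threshold 6 members were lower against control, BMP4 and SMAD3 joining, although the adjusted p of SMAD3 ranged from 0.0112 to 0.152 over the alternatives, and 18 pathway genes were higher and 33 lower, among 2517 genes higher and 2055 lower. With the treat test at 1.5-fold these were 5 and 9 of the pathway genes and 360 and 189 of all genes, and 3 members stayed lower against the 4 peripheral locations, TGFB2, TGFBR2 and GREM1, without TGFB1 and BMP4. Over all rows of the table, named or not, 960 were lower against control. No other alternative for the row per gene, such as the mean of its rows, concerned the members, which had 1 row each. The 3 arrays per group limit what can be seen of changes under 1.5-fold.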

Other observations

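The genes whose levels ran closest to each member over the 18 arrays are given as a description. The arrays share 6 conditions, of which the axis stands apart, so for members that differ there the measure mostly follows that step. GDF15 ran closest to ZNF468 and LACC1 (Pearson r = 0.993 and 0.992), TGFBR1 to SNAI2 and FBXW7 (0.992 and 0.992), TGFB2 to CPA4 and THBS1 (0.991 and 0.990), and GREM1 to CXCL12 and EXT1 (0.989 and 0.989). TGFBR2 ran closest to SCD and UACA (0.978 and 0.977), TGFB1 to COL4A2 and MRFAP1L2 (0.953 and 0.952) and BMP4 to EFEMP1 and ANXA1 (0.939 and 0.928). Members that did not stand apart in the axis had lower values, with SMAD3 closest to IQCH-AS1 and DALRD3 (0.862 and 0.858), INHBA to SNTN and LINC00588 (0.824 and 0.776) and SMAD7 to SYN2 and SCAMP3 (0.758 and 0.746).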
